A study of Danio rerio with 30 samples.

Results

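Crystallins are the proteins that fill the fibre cells of the eye lens at very high concentration and give it its transparency and refractive power. Alpha crystallins belong to the small heat shock proteins and hold other proteins in solution, whereas beta and gamma crystallins share a fold of Greek key motifs and pack densely as oligomers or single chains. Fish lenses are hard and round, and they carry a large set of gamma M crystallins, a methionine-rich class known from aquatic vertebrates. New fibre cells are laid down around older ones throughout life, so the lens keeps adding crystallin transcripts from its outer layers as the fish grows. The genes described here were all symbols of the array annotation for alpha, beta or gamma crystallins and for the beta/gamma family that shares the fold, with the brightest probe set taken where a symbol had several. The annotation held 60 such symbols, of which 49 were read by a probe set of their own among 19260 genes tested. The other 11, such as crygm1, crygm5, crygm2f and crygs2, were read only by probe sets annotated with several genes and have no value here. The 49 comprised 3 alpha, 6 beta A, 5 beta B, 15 gamma M2d, 8 other gamma M, 3 gamma X, 2 gamma N, 3 gamma S and 4 beta/gamma genes.

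Transcripts were measured on Affymetrix ZebGene 1.0 ST arrays in AB strain zebrafish, in total RNA from everything in front of the gills, which contains the eyes. Each of 30 arrays held a pool of 5 fish, with 3 arrays in each of 10 groups. The knockdown groups (KD) had received a morpholino that blocks splicing of grb10a, which encodes an adaptor of insulin and insulin-like growth factor receptors, and the control groups (SC) a standard morpholino directed at human beta-globin, both injected into the yolk of embryos together with phenol red and mRNA for the nuclear blue fluorescent protein nCerulean. Fish of both kinds were taken 5, 10, 15, 20 or 30 days after fertilisation (dpf). The comparison asks how transcripts at each age differ between fish given the grb10a morpholino and fish given the control morpholino. The morpholino is described for the donor site after coding exon 3 in the series design, exon 4 is named as well in the treatment notes, and embryos with weak or uneven fluorescence had been removed.

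Signals are log2 values per probe set, with groups given as mean ± SD (n = 3 arrays). Array medians over all probe sets lay between 5.51 and 5.63, and arrays of 1 group correlated at 0.952 to 0.983. Differences were tested with limma over all genes, and "rose" and "fell" stand for an adjusted p under 0.05. Since nothing in the labels says more of the pools than that they are separate, p-values measure the spread between pools. A signal under 6.06, below which 33.3% of genes lay by their mean over all arrays, is read as near background, and differences to or from such a group as lower limits. Mean signals of 29 crystallins reached that limit, and 8 lay under it on every array. The gamma M2d genes are near-identical copies of one another, so a probe set may also bind transcripts of its neighbours, and their single values are uncertain to that extent. In bulk tissue fewer lens cells and less RNA per cell cannot be told apart. The signal of grb10a itself was 9.11 ± 0.16 in KD and 8.10 ± 0.10 in SC at 5 dpf, a rise of 1.01 (SE 0.12, adjusted p = 3.59e-07), and passed at no later age. A splice-blocking morpholino need not lower the signal of its target on an array. The SC pools at 5 dpf stood apart in genes of the pancreas, liver and intestine, with a mean signal of 5.32 to 5.96 in the KD pools and 8.90 or more in the SC pools of that age, so counts over age are also given without 5 dpf. What these transcripts add to the KD minus SC differences at 5 dpf was not tested.

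Both KD and SC fish exchanged crystallin transcripts between 5 and 30 dpf, and the exchange ran in opposite directions within the gamma M class. The 15 gamma M2d genes had lower signals at 30 dpf than at 5 dpf in both KD and SC fish, while most other gamma M genes, the alpha crystallins, the gamma S crystallins and crybb2 had higher ones. In KD fish 35 of the 49 crystallins passed the test between these ages, against 50.6% of all genes, with 21 that rose (30.6% of all genes) and 14 that fell (20.0% of all genes). In SC fish 39 passed, against 51.0% of all genes, with 24 that rose (34.1% of all genes) and 15 that fell (16.8% of all genes). The median difference of the crystallins was -0.09 in KD fish and 0.26 in SC fish, beside 0.05 and 0.13 for all genes. Of these genes, 32 passed in the same direction in both, which is 91.4% of those called in KD fish and 82.1% of those called in SC fish. None passed in opposite directions. The share of all genes that passed in the same direction in both is not given, so this overlap is not read as a trait of crystallins. Started at 10 dpf in place of 5 dpf, the comparison called 38 crystallins in KD fish, against 43.9% of all genes, with 19 that rose (26.9% of all genes) and 19 that fell (17.0%). In SC fish it called 42, against 51.8% of all genes, with 21 that rose (34.8%) and 21 that fell (16.9%). An F test over the 5 ages in SC fish called 47 of 49, against 69.4% of all genes. With 5 dpf left out it called 44 of 49, and the share of all genes for that test is not given.

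**Figure D1:**
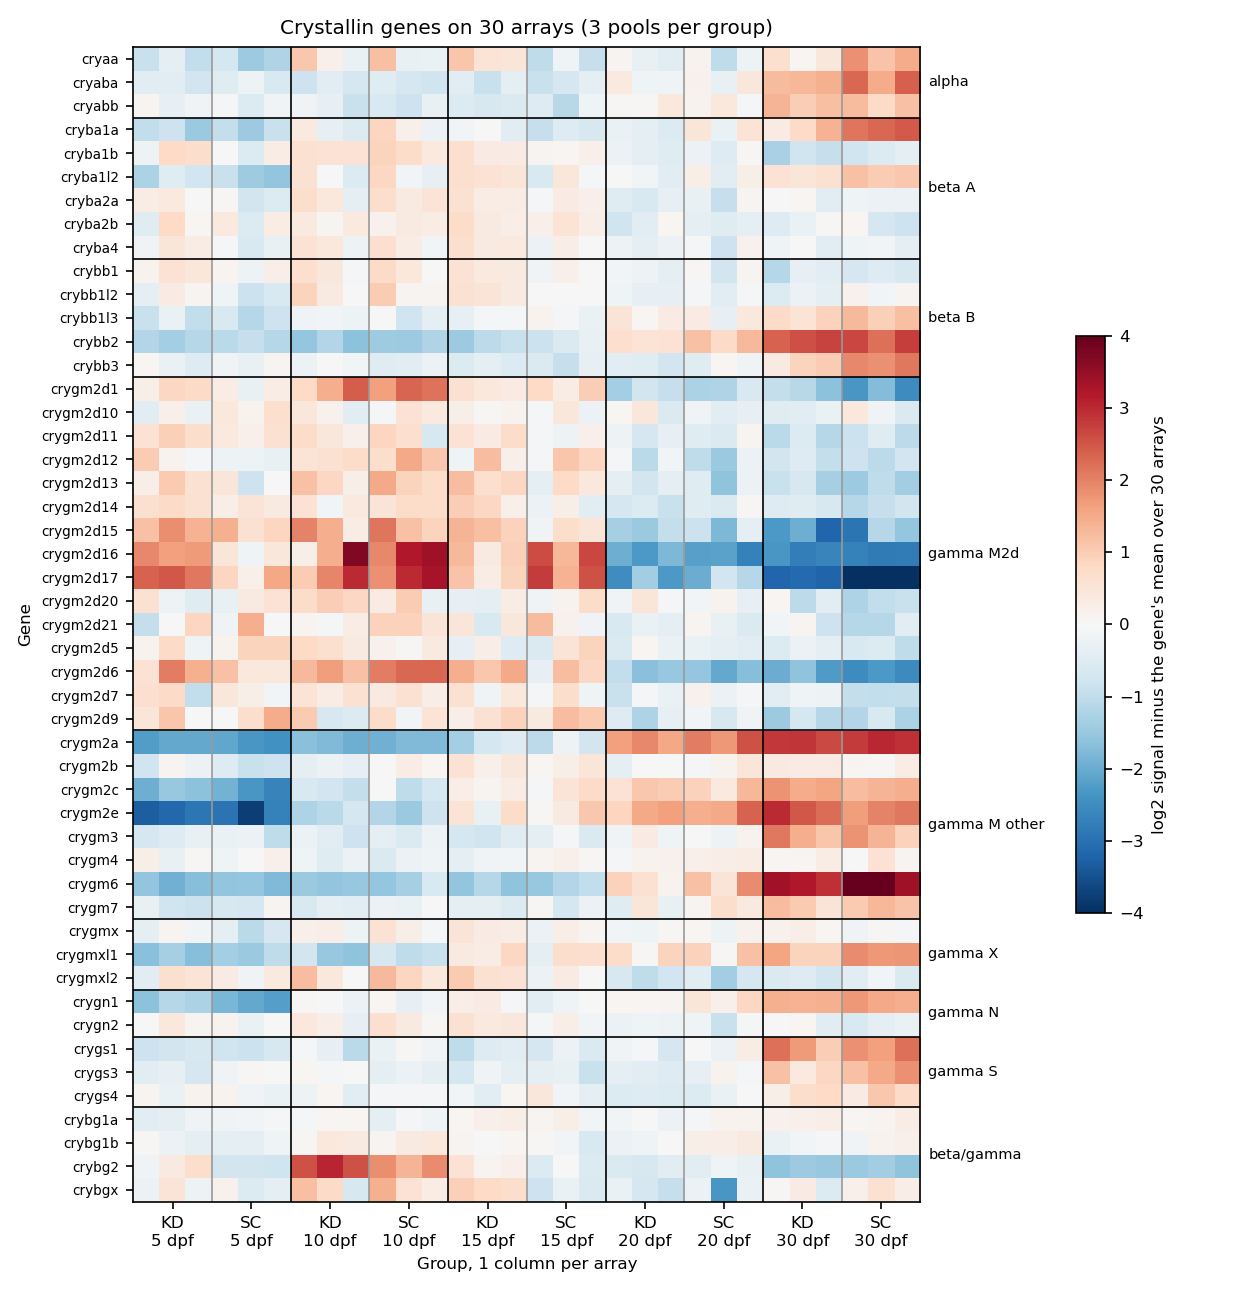
Signal of each of the 49 crystallins (rows, grouped by subfamily) on each of the 30 arrays (columns, 3 pools per group, KD left of SC at each age), as log2 difference from the gene's mean over all arrays, in red where higher and blue where lower. Most gamma M2d rows turn from red to blue between 15 and 20 dpf, while crygm2a, crygm6 and crybb2 turn from blue to red.

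Most of these gamma crystallins lie side by side in the genome. In the RefSeq annotation of assembly GRCz12tu, used here only for the order of genes, crygm7 to crygs3 form a run of 37 protein-coding genes, 34 of them crystallins and 25 of those measured. The crygm2d genes, 21 in all, form an unbroken block of crystallins within it with 15 measured. All 10 measured crystallins on the flanks of that block rose between 5 and 30 dpf in KD fish and in SC fish. Of these, crygm7, crygm6, crygm3, crygs4 and crygs3 had mean signals under 6.06. The highest signal of crygm7 on any array was 5.90, so its rise lay within background. Of the 15 measured crygm2d genes, 10 fell and 0 rose in KD fish, and 13 fell and 0 rose in SC fish. The change of direction thus lay between crygm2e and crygm2d13 on one side of the block and between crygm2d1 and crygm3 on the other, as far as the genes with a probe set of their own show. Only 4 of the 15 crygm2d genes, crygm2d1, crygm2d13, crygm2d15 and crygm2d17, had a mean signal of 6.06 or more, and all 4 fell in both. Started at 10 dpf, 13 of the 15 fell in KD fish and 14 in SC fish, and 0 rose.

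**Figure D2:**
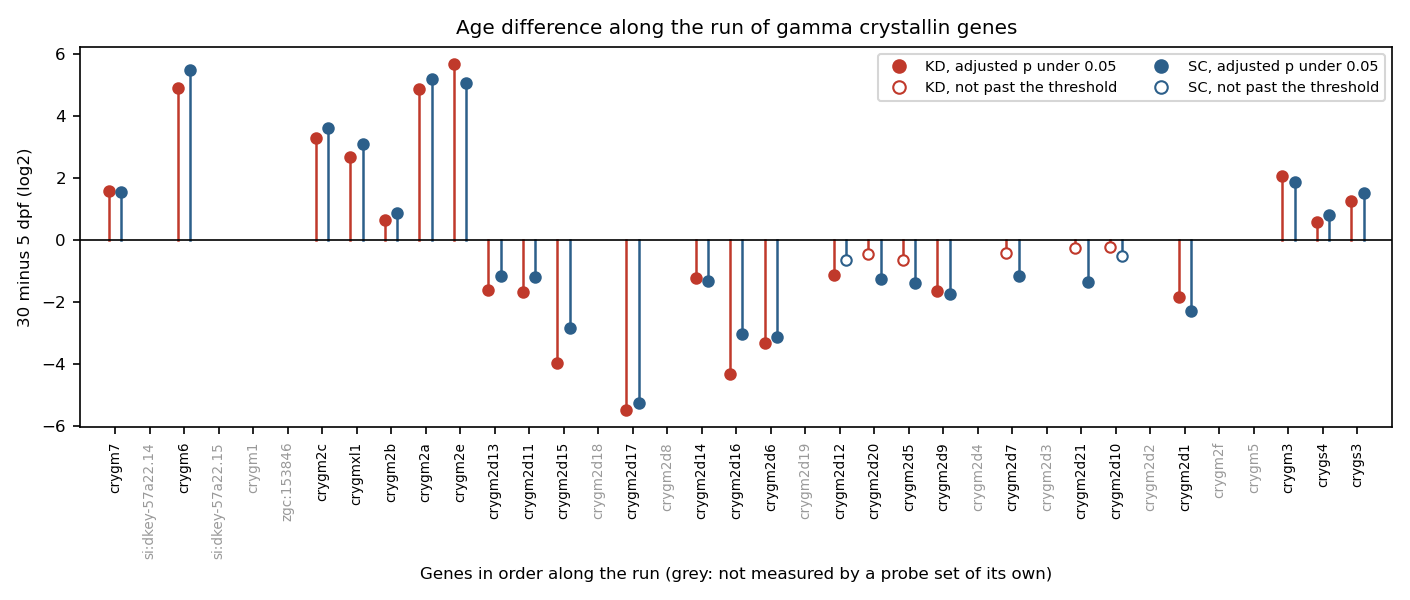
Difference in log2 signal at 30 dpf minus 5 dpf (vertical axis) for each measured gene of the run from crygm7 to crygs3, in annotation order (horizontal axis, with unmeasured genes in grey), in KD fish (red) and SC fish (blue). Filled points passed an adjusted p of 0.05. All 15 crygm2d genes lie below 0 and the 10 flanking crystallins above it.

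Among the crygm2d genes, crygm2d17 had the largest difference between 5 and 30 dpf. In KD fish its mean signals were 11.28, 10.95, 9.74, 6.90 and 5.80 at 5, 10, 15, 20 and 30 dpf. In SC fish they were 9.83, 11.66, 11.19, 7.66 and 4.59 at the same ages. Signals were highest at 5 dpf in KD fish and at 10 dpf in SC fish, and in both the largest step down came between 15 and 20 dpf. At 30 dpf the 3 KD pools gave 5.77, 5.86 and 5.77, and at 5 dpf 11.31, 11.45 and 11.08. The SC pools gave 4.24, 4.98 and 4.53 at 30 dpf and 9.83, 9.16 and 10.50 at 5 dpf. Pools of the 2 ages did not overlap in either, and the differences of -5.48 in KD fish (SE 0.44, adjusted p = 1.62e-10) and -5.25 in SC fish (SE 0.44, adjusted p = 3.04e-10) are lower limits in size because 30 dpf lay under 6.06. The gene was picked by its fall in these same SC pools, so their separation adds no support to the call. How many of all genes separated between these ages is not given, so the separation is description only.

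The other named crygm2d genes also had lower signals at 30 dpf, with peaks at different ages. Mean signals of crygm2d15 were 10.82, 10.59, 10.52, 8.10 and 6.88 in KD fish over the 5 ages, and 10.30, 10.75, 9.71, 8.33 and 7.48 in SC fish. Its 30 minus 5 dpf difference was -3.95 in KD fish (SE 0.43, adjusted p = 3.34e-08), a 15.4-fold fall, and -2.82 in SC fish (SE 0.43, adjusted p = 5.64e-06), a 7.06-fold fall. This gene stayed above 6.06 on every array, so its course does not rest on background signal. Differences of crygm2d1 were -1.84 in KD fish (SE 0.30, adjusted p = 1.69e-05) and -2.29 in SC fish (SE 0.30, adjusted p = 7.10e-07). For crygm2d6, crygm2d16 and crygm2d9, whose mean signals at 30 dpf were between 1.97 and 4.03 in KD fish and between 1.78 and 4.13 in SC fish, the differences were -3.32, -4.32 and -1.64 in KD fish and -3.12, -3.03 and -1.74 in SC fish. All 3 fell in both, and the size of their change is bounded by background. The difference between the KD and SC age changes passed the test for none of the 15 crygm2d genes.

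The flanking genes crygm6, crygm2a, crygm2e and crygm2c moved the other way. Mean signals of crygm6 were 3.31, 3.53, 3.61, 5.61 and 8.22 in KD fish over the 5 ages, and 3.42, 3.89, 3.84, 6.24 and 8.90 in SC fish. Those of crygm2a were 5.29, 5.60, 6.53, 9.09 and 10.16 in KD fish, and 5.12, 5.58, 6.73, 9.51 and 10.32 in SC fish. Signals of crygm6 stayed near background up to 15 dpf, those of crygm2a were already higher at 15 dpf than at 5 dpf, and the largest step of crygm2a in both KD and SC fish came between 15 and 20 dpf. At 30 dpf the KD pools of crygm6 gave 8.42, 8.26 and 7.98, far above the 3.13 to 3.46 of KD pools at 5 dpf. The SC pools gave 9.21, 9.04 and 8.44 at 30 dpf and 3.28 to 3.50 at 5 dpf. None of these pools overlapped between the ages, and the differences were at least 4.91 in KD fish (SE 0.26, adjusted p = 1.14e-13) and at least 5.48 in SC fish (SE 0.26, adjusted p = 1.39e-14). As with crygm2d17, the gene was picked by its difference in these same SC pools, so the separation is description only.

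For crygm2e and crygm2c the higher signals were already seen by 10 or 15 dpf. In KD fish crygm2e had mean signals of 3.12, 5.23, 6.55, 7.56 and 8.79, and in SC fish 3.07, 5.08, 6.72, 8.01 and 8.15, which made differences of at least 5.68 in KD fish (SE 0.31, adjusted p = 1.14e-13) and 5.08 in SC fish (SE 0.31, adjusted p = 7.31e-13). At 5, 15, 20 and 30 dpf crygm2c had mean signals of 8.08, 10.00, 10.67 and 11.39 in KD fish, and of 7.49, 10.18, 10.66 and 11.12 in SC fish. Its signals lay above background at every age, and the differences of 3.31 in KD fish (SE 0.24, adjusted p = 2.38e-11) and 3.63 in SC fish (SE 0.24, adjusted p = 3.57e-12) are rises of 9.93-fold and 12.4-fold. The brightest gamma M gene, crygm2b, changed little by comparison, with a rise of 0.64 in KD fish (adjusted p = 0.00301) and 0.89 in SC fish (adjusted p = 0.000116). Of the 8 gamma M genes outside the crygm2d block, 7 rose in KD fish and 7 in SC fish, and crygm4 passed in neither.

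**Figure D3:**
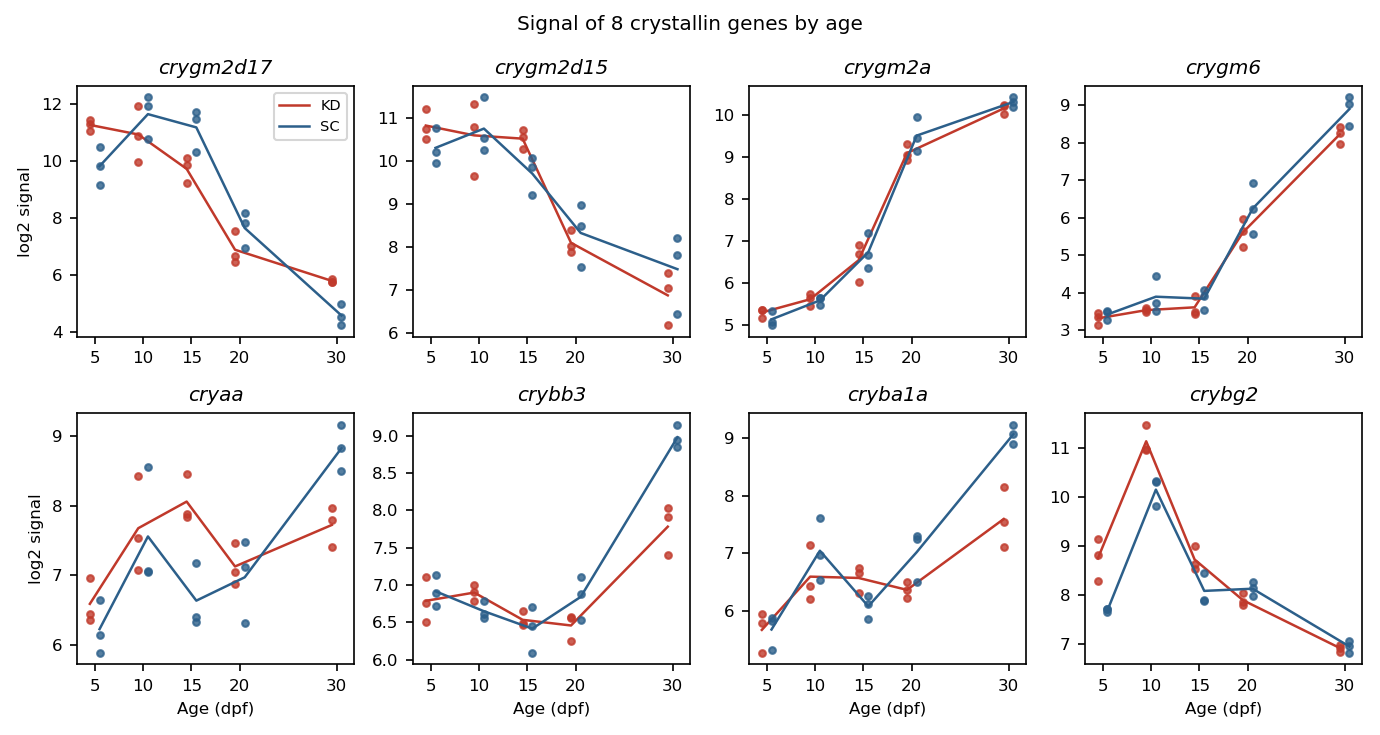
Log2 signal (vertical axes) of 8 crystallins against age in dpf (horizontal axes), with 1 point per pool, KD in red and SC in blue, and lines through group means. The 2 crygm2d genes in the upper row step down between 15 and 20 dpf while crygm2a and crygm6 step up, and in the lower row cryaa at 15 dpf, crybb3 and cryba1a at 30 dpf and crybg2 at 5 and 10 dpf show separate KD and SC pools.

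All 3 alpha crystallins rose between 5 and 30 dpf in KD fish and in SC fish. Mean signals of cryaa, the alpha A chaperone of the lens, were 6.59, 7.68, 8.06, 7.13 and 7.72 in KD fish over the 5 ages, and 6.23, 7.56, 6.64, 6.97 and 8.82 in SC fish. Its 30 minus 5 dpf difference was 1.13 in KD fish (SE 0.36, adjusted p = 0.0108) and 2.59 in SC fish (SE 0.36, adjusted p = 1.39e-06). The difference between the 2 age changes did not pass. The alpha B copies cryaba and cryabb had group means under 6.06 at 5, 10 and 15 dpf and above it at 30 dpf, where cryaba had 6.74 ± 0.07 in KD and 7.46 ± 0.49 in SC and cryabb 7.16 ± 0.20 in KD and 7.04 ± 0.27 in SC. Compared with 5 dpf, cryaba was at least 3.71-fold higher in KD fish and 5.65-fold higher in SC fish, and cryabb at least 2.46-fold higher in KD fish and 2.47-fold higher in SC fish.

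Beta crystallins form oligomers in the lens. In KD fish 5 of the 11 beta genes rose with age and 2 fell, beside 30.6% and 20.0% of all genes, and in SC fish 6 rose and 1 fell, beside 34.1% and 16.8%. The widest course was that of crybb2, with mean signals of 5.51, 5.26, 5.60, 7.32 and 9.27 in KD fish and 5.68, 5.36, 6.14, 7.81 and 9.26 in SC fish, a difference of at least 3.76 in KD fish (SE 0.17, adjusted p = 7.11e-15) and 3.58 in SC fish (SE 0.17, adjusted p = 1.14e-14). The brightest beta B gene, crybb1, went down by 1.02 in KD fish (SE 0.22, adjusted p = 0.000477) and by 0.66 in SC fish (SE 0.22, adjusted p = 0.0163), a 2.03-fold and a 1.58-fold fall. The brightest beta A gene, cryba4, passed in neither, with 11.57 ± 0.21 at 30 dpf and 11.99 ± 0.33 at 5 dpf in KD fish, and 11.57 ± 0.13 at 30 dpf and 11.47 ± 0.28 at 5 dpf in SC fish.

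Of the remaining gamma classes, crygn1 gained signal early and again by 30 dpf, and crygs1 late. Mean signals of crygn1 were 8.14, 9.44, 9.67, 9.58 and 10.91 in KD fish and 7.47, 9.37, 9.30, 10.01 and 11.07 in SC fish, so that it rose by 2.77 in KD fish (SE 0.16, adjusted p = 3.56e-13), 6.81-fold, and by 3.60 in SC fish (SE 0.16, adjusted p = 3.23e-15), 12.2-fold. Its partner crygn2, the brightest of the gamma N genes, did not pass, with 12.01 ± 0.28 at 30 dpf and 12.31 ± 0.22 at 5 dpf in KD fish and 11.71 ± 0.18 at 30 dpf and 12.09 ± 0.20 at 5 dpf in SC fish. The gamma S gene crygs1 was between 4.66 and 5.44 in group means up to 20 dpf and reached 7.05 ± 0.61 in KD and 7.33 ± 0.29 in SC at 30 dpf. All 3 gamma S genes rose in both.

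The beta/gamma genes are relatives with the crystallin fold, and crybg1a and crybg1b encode large proteins known mainly outside the lens. Between 5 and 30 dpf crybg1a rose by 0.54 in KD fish and 0.26 in SC fish, and crybg2 fell by 1.83 in KD fish and 0.74 in SC fish. Group means of crybg1a stayed between 7.48 and 8.02 in KD and between 7.60 and 7.96 in SC, and those of crybg1b between 6.51 and 6.96 in KD and between 6.37 and 6.98 in SC. By contrast the probe set used for crybg2 peaked sharply at 10 dpf, with mean signals of 8.75, 11.15, 8.73, 7.89 and 6.91 in KD fish and 7.69, 10.16, 8.08, 8.13 and 6.94 in SC fish. Its second probe set had no such peak, with 6.22, 5.98 and 6.53 in KD fish and 6.20, 5.88 and 6.09 in SC fish at 5, 10 and 15 dpf. Mean signals of crybgx were 10.13, 10.54, 10.92, 9.48 and 10.04 in KD fish and 9.85, 10.87, 9.55, 9.16 and 10.47 in SC fish, without a difference between 30 and 5 dpf that passed.

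Step by step, the crystallins called between 5 and 10 dpf all rose, and later steps had calls in both directions. The numbers of calls per step differed between KD and SC fish. Between 5 and 10 dpf 7 crystallins rose and 0 fell in KD fish, where 8.26% of all genes were called, 5.35% up and 2.91% down. In SC fish 19 rose and 0 fell, where 28.5% of all genes were called, 13.8% up and 14.7% down. This SC step starts from the 5 dpf pools that stood apart in genes of the pancreas, liver and intestine. Between 10 and 15 dpf 5 rose and 2 fell in KD fish (6.98% of all genes called, 5.56% up and 1.42% down), and 6 rose and 8 fell in SC fish (24.6% called, 13.9% up and 10.7% down). Between 15 and 20 dpf 8 rose and 21 fell in KD fish (25.4% of all genes called, 13.2% up and 12.2% down), and 10 rose and 9 fell in SC fish (12.4% called, 8.34% up and 4.03% down). Among those that fell at this step were 9 crygm2d genes in KD fish and 8 in SC fish. Between 20 and 30 dpf 15 rose and 1 fell in KD fish (11.6% of all genes called, 7.18% up and 4.41% down), and 18 rose and 6 fell in SC fish (31.5% called, 22.0% up and 9.48% down). Group means peaked at 15 dpf for 16 crystallins in KD fish and 3 in SC fish, and at 10 dpf for 11 in KD fish and 22 in SC fish. At 30 dpf they peaked for 19 in KD fish and 20 in SC fish. Peak ages of all genes are not given beside these counts, so the counts are not read as a trait of crystallins. Adjacent steps share a group, and the background shares shift between KD and SC in the same manner, so the steps are described beside it and not as a trait of crystallins.

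The knockdown changed few crystallins at any age, at shares near or under those of all genes at most ages. At 5 dpf 4 of 49 rose and 0 fell, beside 12.0% of all genes called, 5.47% up and 6.51% down. At 10 dpf 1 rose and 0 fell, beside 2.67% called, 1.76% up and 0.914% down. At 15 dpf 4 rose and 2 fell, beside 12.0% called, 9.18% up and 2.84% down. At 20 dpf 0 of 49 passed in limma, beside 14.5% of all genes called, 10.2% up and 4.31% down. At an unadjusted p under 0.05 there were 8 of 49 crystallins at this age, beside 5309 of 19260 genes. At 30 dpf 0 rose and 2 fell, beside 1.00% called, 0.363% up and 0.639% down. Median KD minus SC differences of the crystallins were 0.15, -0.11, 0.12, -0.13 and -0.04 over the 5 ages, and those of all genes 0.02, 0.04, 0.08, -0.01 and -0.04.

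**Figure D4:**
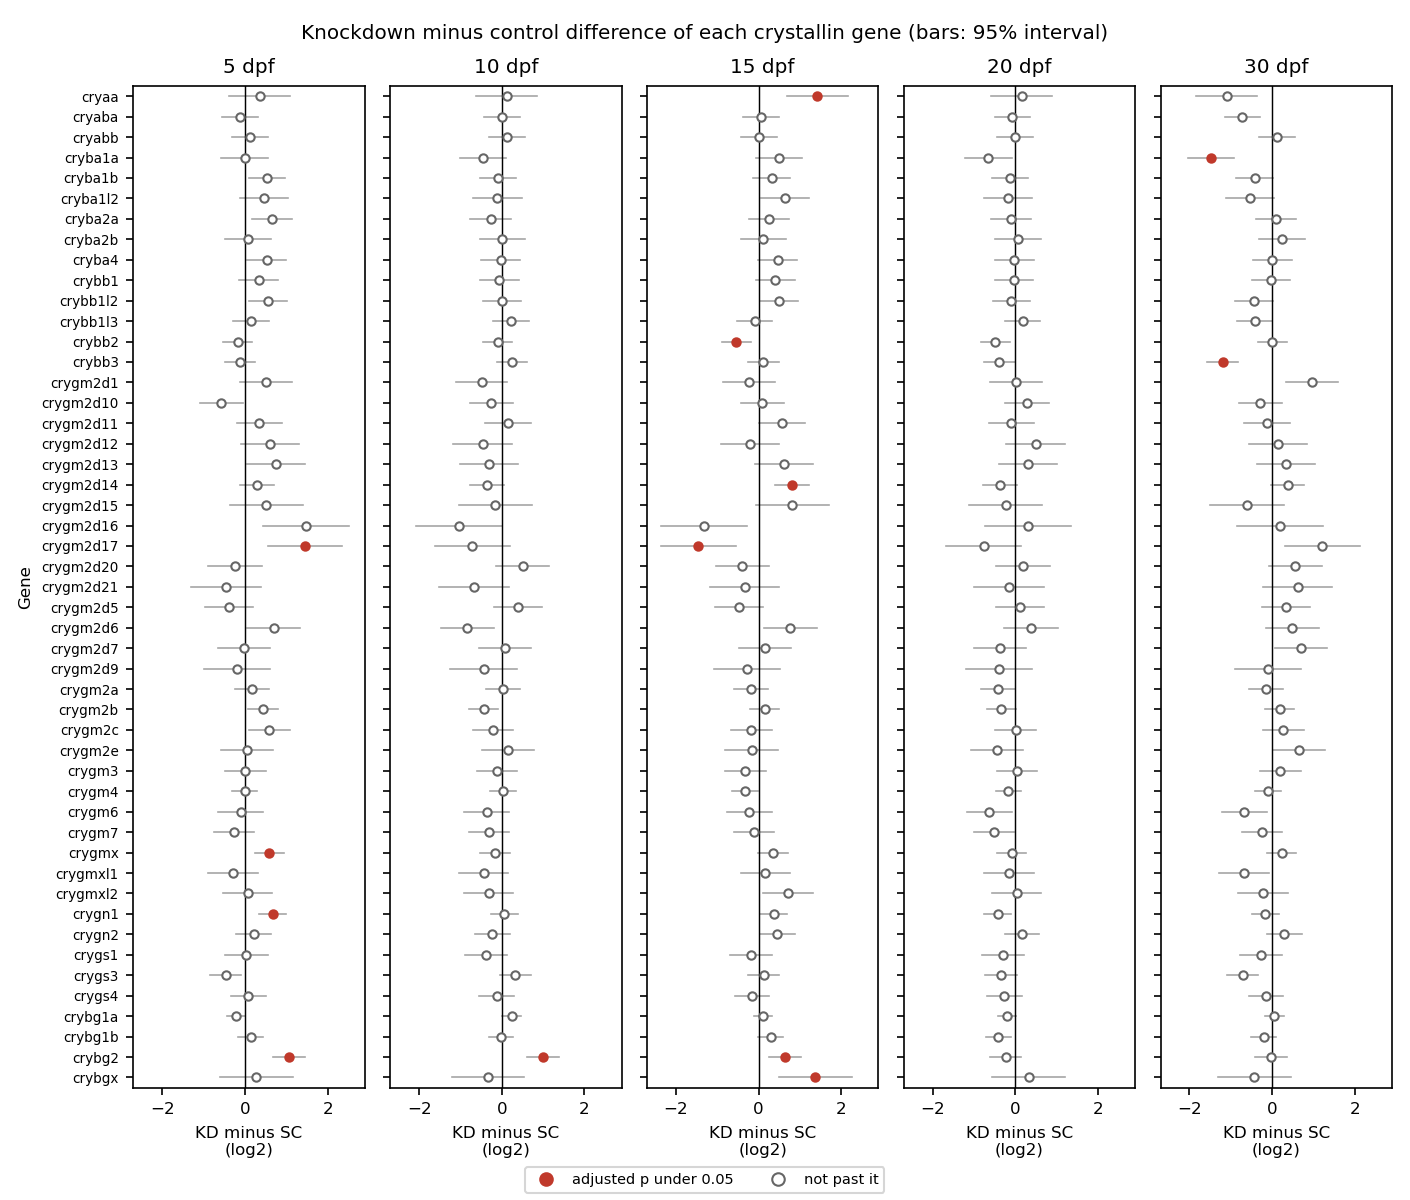
KD minus SC difference in log2 signal (horizontal axes) of each of the 49 crystallins (rows) at each age (panels), with bars for the 95% interval. Filled red points passed an adjusted p of 0.05, and from the youngest to the oldest age they number 4, 1, 6, 0 and 2.

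At 30 dpf 2 beta crystallins were lower in KD fish, crybb3 and cryba1a. The KD pools of crybb3 gave 7.40, 7.92 and 8.03, and the SC pools 8.94, 8.85 and 9.15. All KD pools lay below all SC pools, and the difference of -1.20 (SE 0.18, 95% interval -1.56 to -0.83, adjusted p = 0.000223) is a 2.29-fold fall. For cryba1a the values were 7.10, 7.54 and 8.15 in KD pools and 8.91, 9.07 and 9.24 in SC pools. These too did not overlap, and cryba1a fell by 1.48 (SE 0.27, 95% interval -2.04 to -0.91, adjusted p = 0.00348), 2.78-fold. Since the 2 genes were picked by a test on these same pools, the separation adds no support to their calls. Both genes rose with age in both KD and SC fish, crybb3 by 0.99 in KD fish and 2.06 in SC fish between 5 and 30 dpf, and cryba1a by at least 1.93 in KD fish and 3.40 in SC fish. The difference between these age changes passed for crybb3 (-1.07, SE 0.25, adjusted p = 0.00729) and for cryba1a (-1.47, SE 0.39, adjusted p = 0.0174). It passed for 5 of 49 crystallins, all with the lower change in KD fish, beside 8.31% of all genes (4.16% up and 4.15% down), and the others were crybb1l2, crygn1 and crybg2.

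Of the alpha crystallins, cryaa and cryaba had lower KD signals at 30 dpf without passing the test. The KD pools of cryaa gave 7.97, 7.41 and 7.79, and the SC pools 9.16, 8.49 and 8.82, a difference of -1.10 (SE 0.36, adjusted p = 0.177). For cryaba the KD pools gave 6.67, 6.74 and 6.81 and the SC pools 7.69, 6.89 and 7.78, a difference of -0.72 (SE 0.21, adjusted p = 0.114). The pools did not overlap in either gene. Among the other uncalled crystallins, all KD pools also lay below all SC pools in cryba1l2, crybb1l2, crybb1l3, crygm6, crygmxl1 and crygn1. The reverse, all KD pools above all SC pools, held for crygm2d1 (0.96, adjusted p = 0.16), crygm2d6, crygm2d7, crygm2d14, crygm2d17, crygm2b, crygm2c, crygm2e and crygmx. How many of all genes separated at this age is not given, so the separation is description only. The third alpha crystallin, cryabb, overlapped with a difference of 0.12, and 11 of 49 crystallins had an unadjusted p under 0.05 at this age, beside 2195 of 19260 genes.

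At 5 dpf the genes that rose in KD fish were crybg2, crygn1, crygmx and crygm2d17. The KD pools of crybg2 gave 8.29, 8.81 and 9.14, and the SC pools 7.71, 7.71 and 7.64, 2.09-fold higher (1.06, SE 0.19, adjusted p = 0.000225). The second probe set of crybg2 did not show this, with a difference of 0.03 (adjusted p = 0.954). In crygn1 the KD pools gave 7.84, 8.36 and 8.22, and the SC pools 7.67, 7.44 and 7.29, 1.59-fold higher (0.67, SE 0.16, adjusted p = 0.00528). No pools overlapped in either gene. For crygmx the KD pools gave 11.38, 11.83 and 11.62 and the SC pools 11.34, 10.65 and 11.06, a rise of 0.59 (SE 0.17, adjusted p = 0.0243), and its second probe set rose as well, by 0.88 (adjusted p = 0.00334). For crygm2d17 the KD pools gave 11.31, 11.45 and 11.08 and the SC pools 9.83, 9.16 and 10.50, a rise of 1.45 (SE 0.44, adjusted p = 0.0296). In all 4 genes every KD pool lay above every SC pool. The same held for crygm2d12, crygm2d14 and crygm2d16, and the reverse for crybb2, crygs3 and crybg1a, none of which passed. How many of all genes had separated pools at 5 dpf is not given, so these separations are description only. Since the 4 genes were picked by a test on these same pools, the separation adds no support to their calls. The calls of crybg2 and crygn1 held without any 1 pool, whereas that of crygmx was lost without KD pool 2 (adjusted p = 0.124), KD pool 3 (0.0676) or SC pool 2 (0.185). That of crygm2d17 was lost without KD pool 1 (0.067), 2 (0.0912) or 3 (0.0541) and without SC pool 1 (0.0709) or 2 (0.167).

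At 15 dpf cryaa, crybgx, crybg2 and crygm2d14 rose and crygm2d17 and crybb2 fell in KD fish. The KD pools of cryaa gave 8.45, 7.88 and 7.83, and the SC pools 6.34, 7.17 and 6.41, 2.67-fold higher (1.42, SE 0.36, adjusted p = 0.0113). For crybgx the KD pools gave 11.05, 10.90 and 10.81 and the SC pools 9.28, 9.83 and 9.53, a rise of 1.37 (SE 0.43, adjusted p = 0.036). Neither gene had overlapping pools. For crygm2d17 the KD pools gave 10.11, 9.25 and 9.86 and the SC pools 11.75, 10.34 and 11.50, and it fell by 1.46 (SE 0.44, adjusted p = 0.0312). In crybb2 the KD pools gave 5.27, 5.69 and 5.83 and the SC pools 5.87, 6.13 and 6.42, and it fell by 0.54 (SE 0.17, adjusted p = 0.038). All its KD pools lay under 6.06, so the size of this fall is a lower limit. Pools of crybg2 did not overlap, with 9.01, 8.54 and 8.63 in KD and 7.91, 8.46 and 7.89 in SC, a rise of 0.64 (SE 0.19, adjusted p = 0.0263). The rise of crygm2d14 by 0.81 (SE 0.20, adjusted p = 0.00834) was between group means of 4.44 in KD and 3.63 in SC, both under 6.06, and its pools overlapped. As at 5 dpf, separation of pools adds no support to calls made on those same pools.

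Each of the 15 dpf calls was lost without at least 1 of the 6 pools, while the differences kept their direction. Without KD pool 1 the count of crystallins called at 15 dpf was 0, and without SC pool 3 it was 0 as well. Without SC pool 2 it was 8, without KD pool 2 or SC pool 1 it was 3, and without KD pool 3 it was 4. The shares of all genes called without these pools are not given beside the counts. The call of cryaa was lost without KD pool 1 (adjusted p = 0.0767), SC pool 1 (0.0592) or SC pool 3 (0.0508), with differences of 1.22 to 1.68 over the 6 pools left out in turn. Those of crygm2d17 and crybgx were each lost without any pool other than SC pool 2, at adjusted p of up to 0.149 and 0.125. That of crybg2 was lost without KD pool 1 (0.156), SC pool 1 (0.113) or SC pool 3 (0.112), that of crygm2d14 without KD pool 1 (0.0756) or SC pool 3 (0.0601), and that of crybb2 without KD pool 1 (0.232), KD pool 2 (0.0685), SC pool 2 (0.0601) or SC pool 3 (0.184).

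The sign of the KD minus SC difference of crygm2d17 turned with age. From 5 to 30 dpf the differences were 1.45, -0.71, -1.46, -0.76 and 1.22, and at 30 dpf the KD pools gave 5.77, 5.86 and 5.77 and the SC pools 4.24, 4.98 and 4.53. The last is a difference within background, and it did not pass (adjusted p = 0.242). The change of the difference between 5 and 15 dpf was -2.91 (SE 0.62, adjusted p = 0.0022), and crygm2d16 had one of -2.80 (SE 0.72, adjusted p = 0.00922). These 2 were the crystallins called for that change, beside 12.7% of all genes (9.24% up and 3.47% down). In crygm2d16 the KD pools gave 6.47, 6.18 and 6.25 at 5 dpf, against 5.04, 4.39 and 5.02 in SC, and 5.86, 4.91 and 5.51 at 15 dpf, against 7.15, 5.87 and 7.23 in SC. KD pools lay above SC pools at 5 dpf and below them at 15 dpf. All SC pools of crygm2d16 at 5 dpf and all its KD pools at 15 dpf lay under 6.06. The size of its change is therefore bounded by background.

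The knockdown difference of other crystallins also moved from age to age. In each comparison below, calls in both directions together were a smaller share of crystallins than of all genes. Between 5 and 10 dpf it went down for 4 genes, crygm2d16 (-2.53, adjusted p = 0.0228), crygm2d17 (-2.16, adjusted p = 0.0252), crygm2d6 (-1.52, adjusted p = 0.0282) and crygm2b (-0.87, adjusted p = 0.0205), beside 10.0% of all genes (6.19% up and 3.84% down). Between 10 and 15 dpf it went up for crygm2d14 (1.17, adjusted p = 0.00746) and crygm2d6 (adjusted p = 0.0205), beside 11.1% of all genes (6.82% up and 4.26% down). Between 15 and 20 dpf it went down for 5 genes, crygm2d14, cryba1a, crybg2, crygn1 and crybg1b, beside 20.8% of all genes (9.26% up and 11.5% down). Of the gamma N gene crygn1, the KD pools thus lay above the SC pools at 5 dpf and below them at 20 dpf, where the difference of -0.42 did not pass (adjusted p = 0.0767). Between 20 and 30 dpf it went down for crybb3 (-0.81, adjusted p = 0.0454) and up for crygm2d17 (1.98, adjusted p = 0.05), beside 7.56% of all genes (1.43% up and 6.13% down). Measured from 5 to 20 dpf it went down for crygm2d17, crybg2, crygn1, crygm2b and crygmx, beside 20.0% of all genes (12.0% up and 8.01% down). The crygm2d14, crygm2d6 and crygm2d16 signals in these comparisons were near background in one or both groups. Those of crygm2d17 at 30 dpf were near background in both KD and SC fish.

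At 10 dpf crybg2 alone passed. Its KD pools gave 10.98, 11.49 and 10.98 and its SC pools 10.31, 9.82 and 10.34, 1.99-fold higher without overlap (0.99, SE 0.19, adjusted p = 0.00382). The lack of overlap adds no support to a call made on these same pools. The call was lost without KD pool 2 (adjusted p = 0.0579) or SC pool 2 (0.051). Averaged over the 5 ages crybg2 was again the only crystallin that passed, with a mean difference of 0.49 (SE 0.08, adjusted p = 0.00133), beside 3.01% of all genes called, 1.63% up and 1.39% down. With 5 dpf left out the mean difference was 0.34 (adjusted p = 0.0397) and 2 crystallins passed, without a share of all genes given beside them. A second probe set annotated to crybg2 did not show these differences. Its KD minus SC difference was 0.03 at 5 dpf (adjusted p = 0.954), 0.10 at 10 dpf (adjusted p = 0.85) and 0.43 at 15 dpf (adjusted p = 0.139), and its group means lay between 5.60 and 6.53 in KD and between 5.65 and 6.41 in SC, without a peak at 10 dpf. The rise of crybg2 is therefore a statement about 1 of its 2 probe sets.

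Other genes known from the lens were set beside the crystallins. Their list is not restricted to fibre cells and holds genes also expressed elsewhere, such as pax6a, pax6b and tmod4. Of 33 measured lens genes other than crystallins, 5 rose and 1 fell in KD fish at 5 dpf, beside 12.0% of all genes called (5.47% up and 6.51% down), with a median difference of 0.34 against 0.02 for all genes. Those that rose were bfsp2, a beaded filament protein of fibre cells, the lactase-like gene lctla, and the eye transcription factor genes pitx3, pax6a and pax6b, while tmod4, a tropomodulin also found in muscle, fell. At 10 dpf 0 passed, beside 2.67% of all genes. At 15 dpf 6 rose and 0 fell, beside 12.0% of all genes called (9.18% up and 2.84% down), with a median difference of 0.33 against 0.08 for all genes. These were mipb, which encodes a lens water channel, lim2.1, lim2.3 and lim2.5, which encode lens membrane proteins, the galectin-related gene grifin, and dnase1l1l, which encodes the nuclease that clears DNA from fibre cells. At 20 dpf dnase1l1l rose, and at 30 dpf 0 passed. The small heat shock protein genes outside the crystallins, 9 of 10 measured, included 1 that fell at 5 dpf and 0 that passed at the other ages. At 5 dpf the photoreceptor list moved too, with 16 of 41 genes risen and mean levels of 8.16 to 8.59 in the KD pools and 7.89 to 7.99 in the SC pools. Of 20 genes of retinal neurons and Muller glia, 9 rose at 5 dpf, with a median difference of 0.45, and pax6a and pax6b stand in both that list and the lens list. In the same comparison 21 of 26 skeletal muscle genes fell. At 15 dpf 9 of 26 skeletal muscle genes and 9 of 22 exocrine pancreas genes rose, beside 9.18% of all genes. Their part in the crystallin results was not tested.

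Pools of 1 group differed in their crystallin signals. The median SD within groups was 0.321 for crystallins and 0.188 for all genes, and 93.9% of crystallins exceeded the all-gene median. The mean of the 18 crystallins with a mean signal of 8 or more ranged by 0.03 to 0.74 between pools of a group. In 8 of 10 groups the pool highest in these 18 crystallins was also the highest in the 33 other lens genes, and in 6 of 10 the lowest pool was the same. The highest pool was also the same in the photoreceptor list in 6 of 10 groups. The mean of the 33 other lens genes was 7.14 to 7.62 in KD and 6.88 to 7.25 in SC pools at 5 dpf, 7.65 to 7.86 in KD and 7.23 to 7.58 in SC pools at 15 dpf, and 7.17 to 7.28 in KD and 7.32 to 7.38 in SC pools at 30 dpf.

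With that mean as a covariate, an alternative chosen after seeing this spread, 0 crystallins passed at 15 dpf. The share of all genes called with the covariate is not given. The difference of cryaa was then 0.60 (adjusted p = 0.128). Those of crybgx and crygm2d17 were 0.43 (adjusted p = 0.436) and -0.81 (adjusted p = 0.306), whereas those of crygm2d14 at 0.68 (adjusted p = 0.075), crybg2 at 0.50 (adjusted p = 0.177) and crybb2 at -0.56 (adjusted p = 0.104) were nearer to their values without the covariate. At 5 dpf crygmx was then no longer called (0.26, adjusted p = 0.148). The 30 dpf differences stayed called, with -1.25 for crybb3 (adjusted p = 0.00016) and -1.29 for cryba1a (adjusted p = 0.000764), as did crybg2 (0.93, adjusted p = 0.00238), crygn1 (0.41, adjusted p = 0.0349) and crygm2d17 (2.03, adjusted p = 0.0016) at 5 dpf. The covariate is itself measured in the same pools, and its values in KD and SC pools did not overlap at 15 and 30 dpf. It includes genes also expressed outside the lens, so it is not a measure of lens content alone.

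**Figure D5:**
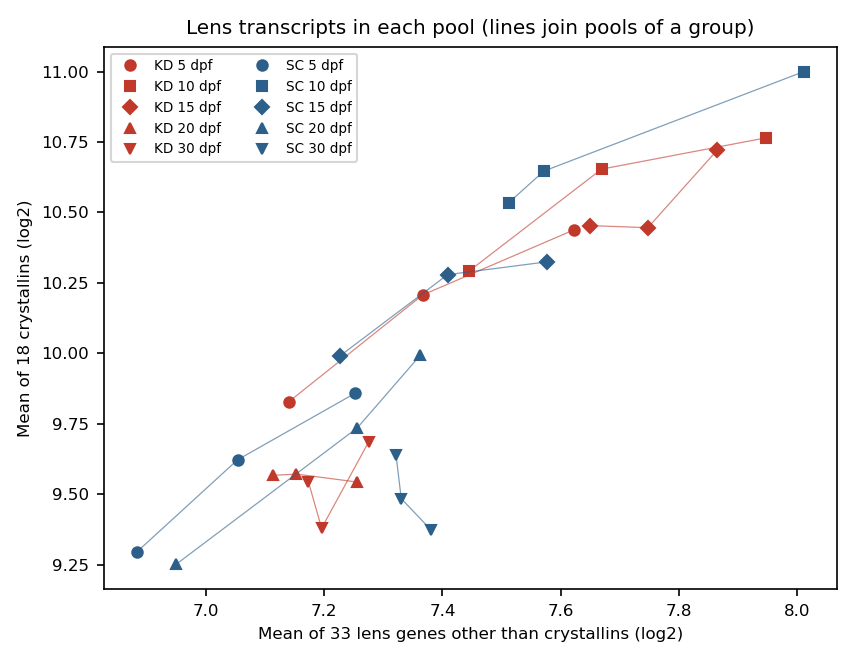
Mean log2 signal of the 18 crystallins with a mean signal of 8 or more (vertical axis) against that of the 33 other lens genes (horizontal axis), with 1 point per pool, KD in red and SC in blue, shapes for ages and lines joining the pools of a group. Pools of 1 group spread along both axes together in most groups, and at 15 dpf the KD pools lie to the right of the SC pools.

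Genes with the course most like the median course of the 49 crystallins were sought over all genes outside the set. The measure was Pearson's r over the 10 group means with this median course, which was highest in KD fish at 15 dpf (0.32 above the mean over groups) and in SC fish at 10 dpf (0.28 above it). It was lowest in KD fish at 20 dpf (-0.27). Because crystallins moved in opposite directions with age, the median is a narrow course that stands for neither the strongly rising nor the strongly falling genes. The closest 10 were gpx9, lctlb, si:dkey-221j11.3, rnasekb, mipb, dlg1b, bfsp1, bfsp2, mir726 and lctla, with r between 0.912 and 0.952. Of these, 5 are in the list of lens genes: lctla and lctlb, mipb, and the beaded filament pair bfsp1 and bfsp2. The r values describe 10 group means of shared arrays and carry no test.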

How the data were processed

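The deposited values are log2 signals per probe set for 30 arrays, made by the authors; per the submitters' processing notes the tool was RMA. Values entered the tests as deposited. The number of arrays limits the precision. Of 75212 probe sets, 20806 annotated to 1 symbol were kept, 20323 of them with a current symbol by Entrez identifier, and the brightest per symbol gave 19260 genes. Limma 3.58.1 in R 4.3.3 fitted 1 mean per group over all 30 arrays with 20 residual degrees of freedom. Contrasts were KD minus SC at each age, their mean, differences between ages, and moderated F tests. All tests were two-sided with Benjamini-Hochberg adjustment over all genes.

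The members and lists were chosen with earlier results of these data known. Values in single pools are given for alpha and beta/gamma genes, the brightest gene of each subfamily, up to 6 genes called per knockdown contrast, and the 6 largest rises and falls of SC fish with age; crygm2d16 at 5 and 15 dpf falls under the last. Like-course genes were the 10 highest correlations.

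The alternatives tried were array weights, the mean of all probe sets, median centring, repeated quantile normalization, tests without dim genes, a robust spread with intensity trend, a replicate block, only the compared arrays, and each array left out in turn. The lens gene mean as a covariate, 10 dpf as the start, and 5 dpf left out were added after seeing the data. The fit was tested on simulated data. Python 3.11.15 with matplotlib 3.10.9 drew the figures.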

Additional observations from a re-analysis of the deposited data

Results flagged for a closer look

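By limma's F test of the 4 differences from 5 dpf, the KD minus SC difference was not the same at all 5 ages for 11 of 49 crystallins. This is a smaller share than the 31.7% of all genes called, so the count is not read as a trait of crystallins. Adjusted p-values were 0.000577 for crybb3, 0.000737 for crybg2, 0.0015 for crygm2d17, 0.00369 for crygn1, 0.00389 for cryba1a and 0.00551 for crygm2d14. For cryaa it was 0.00778, for crygs3 0.0129, for crygm2d16 0.0182, for crygm2b 0.0238 and for crygm2d6 0.0323. With 5 dpf left out, 10 of these 11 passed and crygm2d16 did not, and the share of all genes for that test is not given. Mean signals of crygs3, crygm2d14, crygm2d16 and crygm2d6 lay under 6.06. The probe set used for crygs3 gave KD minus SC differences of -0.46, 0.33, 0.12, -0.35 and -0.71 over the 5 ages. Its second probe set gave -0.35, 0.02, -0.55, -0.35 and -0.06. The second probe set of crybg2 did not show the differences at 5 and 10 dpf.

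In crybb3 and cryba1a the difference was largest in size at 30 dpf, in cryaa it was 1.42 at 15 dpf and -1.10 at 30 dpf, and in crygm2d17 it was above 0 at 5 and 30 dpf and below 0 at the ages between.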

How the results depend on the processing

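Of 26 gene results recomputed under 421 alternative values, 370 kept direction and side of the threshold, 51 kept direction but lost the call, and 0 reversed. Every lost call was that of a KD minus SC difference, and the SC differences between 30 and 5 dpf kept theirs throughout. The KD calls at 15 dpf were the least stable, kept in 6 of 15 alternatives for crybb2 and at most 11 of 15, for cryaa. The causes were not tested beyond what each alternative changes by construction. The KD calls of crybg2 and crygn1 at 5 dpf and of crybb3 and cryba1a at 30 dpf held under every alternative run. None of these alternatives used the second probe set of crybg2 alone, which gave 0.03 at 5 dpf (limma adjusted p = 0.954). The count at 20 dpf, 0 as reported, was 2 with an intensity trend and robust spread, 3 without dim genes, 3 after a second quantile normalization, 2 with median centring, 8 with array weights, 1 with the replicate block, 2 with only the compared arrays and 3 with the lens covariate, all lower in KD. Array weights gave 9 at 5 dpf, 4 at 30 dpf, 5 for the mean over ages and 18 in the F test of the knockdown difference. The mean over ages gave 4 with the trend, 4 without dim genes, 2 with the covariate and 2 with 5 dpf left out, against 1. The 10 dpf count was 0 with the mean of all probe sets and 0 with only the compared arrays, which gave 3 at 15 dpf and 5 at 30 dpf. The 15 dpf count was 0 with the covariate. Without dim genes, which leaves 29 crystallins, age counts were 21 in KD fish, 23 in SC fish and 28 in the SC F test. Leaving out 1 pool gave 2 to 7 crystallins at 5 dpf, 0 to 2 at 10 dpf, 0 to 8 at 15 dpf, 0 to 4 at 20 dpf, 2 to 3 at 30 dpf, 1 to 4 for the mean, 11 to 15 in the F test, 33 to 36 for age in KD fish, 36 to 40 for age in SC fish and 45 to 48 in the SC F test. The 4 at 20 dpf and the 4 for the mean both came without SC pool 2 of 20 dpf. The shares of all genes called under each alternative are not given beside the crystallin counts, here and below. These counts therefore show how far the crystallin calls moved, and not whether they lay above or below the share of all genes.

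With the replicate block the count at 5 dpf was 5, and the other knockdown counts were 1, 6, 1 and 2 at 10, 15, 20 and 30 dpf. Pools share only a number: 4 of 15 same-numbered pairs correlated above 0.1 (range -0.12 to 0.28). Median centring gave 2536 genes risen and 354 fallen in KD at 15 dpf, against 1769 and 547. Signal over background limits the dim crygm2d genes, where differences are lower limits.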
